A study of Mus musculus with 12 samples.

Results

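The regions described here are the AGO2 peaks in 3′ UTRs that hold a match to the seed shared by miR-1 and miR-206. Every listed peak was taken, with no threshold on its fold, if its midpoint lay in an annotated 3′ UTR and in no coding sequence on the same strand, and if the peak, extended by 25 nt on each side, held the 7-nt word ACATTCC. That word is complementary to positions 2 to 8 of the microRNA. Of 713343 listed peaks in 4 libraries, 98940 lay in 3′ UTRs and 3396 of these held the word. They fell on 1202 distinct sites, and 496 of those sites (41.3%) were listed in all 4 libraries.

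The libraries came from chimeric eCLIP of mouse tibialis anterior (TA) muscle, in which AGO2 is cross-linked to RNA, immunoprecipitated and sequenced beside an input of the same lysate. WT mice and mice with a germline deletion of mir-486 (mir-486 KO), all male and 6 months old, each gave 1 total immunoprecipitated library in each of 2 library sets, set 1 and set 2. Strain labels were C57BL/6 in the WT samples and FVB N/J in the mutant samples, while the study's methods describe a backcross of the mutant line onto C57BL/6J, so genotype and labelled strain cannot be told apart. The study's methods give 3 samples per genotype, run in duplicate, but do not tie these to the 2 sets or say whether muscle was pooled, and an SD over libraries may therefore be a technical spread.

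miR-1 and miR-206 are microRNAs of striated muscle. miR-1 is made in heart and skeletal muscle, miR-206 in skeletal muscle, and both are induced by the myogenic transcription factors. They begin with the same bases, so both are read by the same 3′ UTR word, and a peak with that word cannot be assigned to either. AGO2 holds the microRNA with its seed exposed, pairs with the complement in a 3′ UTR, and recruits factors that shorten the poly(A) tail and repress translation.

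The mature miR-206-3p is transcribed from chr1:20679055-20679076 on the plus strand, and its seed is shown in capitals. The seed of miR-133b-3p, a myomiR made from the neighbouring locus, and that of let-7a-5p served as the nearest comparisons. These microRNA sequences are from RefSeq on GRCm38.p6.
miR-206-3p: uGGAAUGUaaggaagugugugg
miR-133b-3p: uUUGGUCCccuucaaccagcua
let-7a-5p: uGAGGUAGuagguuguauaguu

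The sites below were among those with the highest fold or belonged to genes widely given as miR-1 or miR-206 targets, and they show what the members share and where they vary. Each line is a 30-nt stretch of the transcribed strand of GRCm38, with the 7-nt match in capitals. The base after the match decides the site type: an 8mer has A there, opposite the first base of the microRNA, and a 7mer-m8 has another base.
Hdac4, chr1:91930059-91930088, minus: tggttgtgtttctttcctcagaACATTCCt
Uhmk1, chr1:170194196-170194225, minus: tgaaaaatcttaaaatactttaACATTCCt
Ndrg3, chr2:156928497-156928526, minus: ccacacccatgccattactgtaACATTCCa
Vamp2 upstream, chr11:69091578-69091607, plus: ctgccactcggggtctctccctACATTCCt
Vamp2 downstream, chr11:69091618-69091647, plus: tttcatgtggggcactcaactgACATTCCc
Met upstream, chr6:17572338-17572367, plus: atgttgtctgcccatcaggcaaACATTCCc
Met downstream, chr6:17572364-17572393, plus: tcccttttaaatgcttatatacACATTCCt
Mylk, chr16:35001880-35001909, plus: tgcgtgtgtgtgtgtgtgtctaACATTCCa
Jarid2, chr13:44920807-44920836, plus: gtcatccatgtgcaatttcccgACATTCCa
Gpd2, chr2:57367638-57367667, plus: agcaaataaacaacactggaaaACATTCCa
Gja1, chr10:56389150-56389179, plus: tgtcctacatccccgctaaaaaACATTCCa
Kcnj2, chr11:111074201-111074230, plus: ttctgagcttttctctcttagcACATTCCa

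The members numbered 787 in the WT library and 639 in the mir-486 KO library of set 1, and 998 and 972 in those of set 2. They made up 4.41% and 2.92% of the 3′ UTR peaks of set 1 and 3.34% and 3.32% of those of set 2. In each library between 39.5% and 40.4% of members held an 8mer. Between 8 and 12 members a library held more than 1 match, so a member nearly always stood for a single site. At the loci of the microRNAs themselves, Mir206, Mir1a-1 and Mir1a-2 each had listed peaks in all 4 libraries, and the highest log2 fold over input at Mir206 was 8.13 in WT and 7.38 in mir-486 KO in set 1, and 8.92 and 6.12 in set 2. Mir486 had 2 listed peaks in WT of set 1, 4 in WT of set 2 and 0 in both mir-486 KO libraries, as the labels state.

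A peak is called enriched where the authors' log2 fold over input was at least 3 and their −log10 p at least 3. Of all listed peaks, 3.57% were enriched in WT and 0.848% in mir-486 KO of set 1, and 1.42% and 1.23% in set 2. The mir-486 KO library of set 1 stood apart as the lowest, and results are also given without it. Read counts are absent from the lists and the depth of a library is unknown. The steps of the log2 folds gave an immunoprecipitated library between 1.44 and 2.30 times as deep as its input, so that a peak with 1 input read needed 12 to 19 immunoprecipitated reads to reach the fold threshold. All 10 skeletal muscle fibre markers (Acta1, Ckm, Myh4 and others) had listed peaks in each library. The 4 slow fibre markers carried 93 and 81 listed peaks in set 1 (WT, then mir-486 KO) and 8 and 7 in set 2. WT of set 1 stood apart in enriched peaks: 7 of the 10 fibre markers, 4 of 4 slow fibre markers and 3 of 4 red blood cell markers had one, against 0 of each in mir-486 KO of set 1 and at most 1, 0 and 0 in set 2. The part of these differences in the results was not tested.

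AGO2 was more strongly enriched over input at the miR-1/miR-206 peaks than at other 3′ UTR peaks in each of the 4 libraries. In set 1, 191 of 787 members were enriched in WT (24.3%, 95% Wilson interval 21.4% to 27.4%) against 5.05% of other 3′ UTR peaks, where 5.89% of all 3′ UTR peaks were. In mir-486 KO of set 1, 80 of 639 members were enriched (12.5%, 10.2% to 15.3%) against 1.32% of the others, with 1.64% over all 3′ UTR peaks. In set 2 the members reached 17.3% in WT (173 of 998) and 18.5% in mir-486 KO (180 of 972), against 3.06% and 3.02% of the others and 3.54% and 3.53% of all 3′ UTR peaks. No interval of members overlapped that of the others, although intervals cover counting error only and neighbouring peaks are not independent.

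The difference between members and other 3′ UTR peaks was 15.05 ± 3.32 percentage points (SD, n = 4 libraries) and positive in 4 of 4 libraries, with a two-sided exact sign-flip permutation p of 0.13 (1 in 8), the smallest that 4 libraries allow. Without the mir-486 KO library of set 1 it was 16.3 percentage points. The median log2 fold gave the same order without any threshold: it was 2.20, 1.80, 1.95 and 1.94 at members (WT and mir-486 KO of set 1, then of set 2) and 0.87, 0.61, 0.54 and 0.55 at other 3′ UTR peaks. That difference was 1.33 ± 0.095 (SD, n = 4; exact permutation p = 0.13). The lower quartile of members, 1.196, 0.80, 1.19 and 1.11 in the same order, lay above the median of the other peaks in every library.

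**Figure D1:**
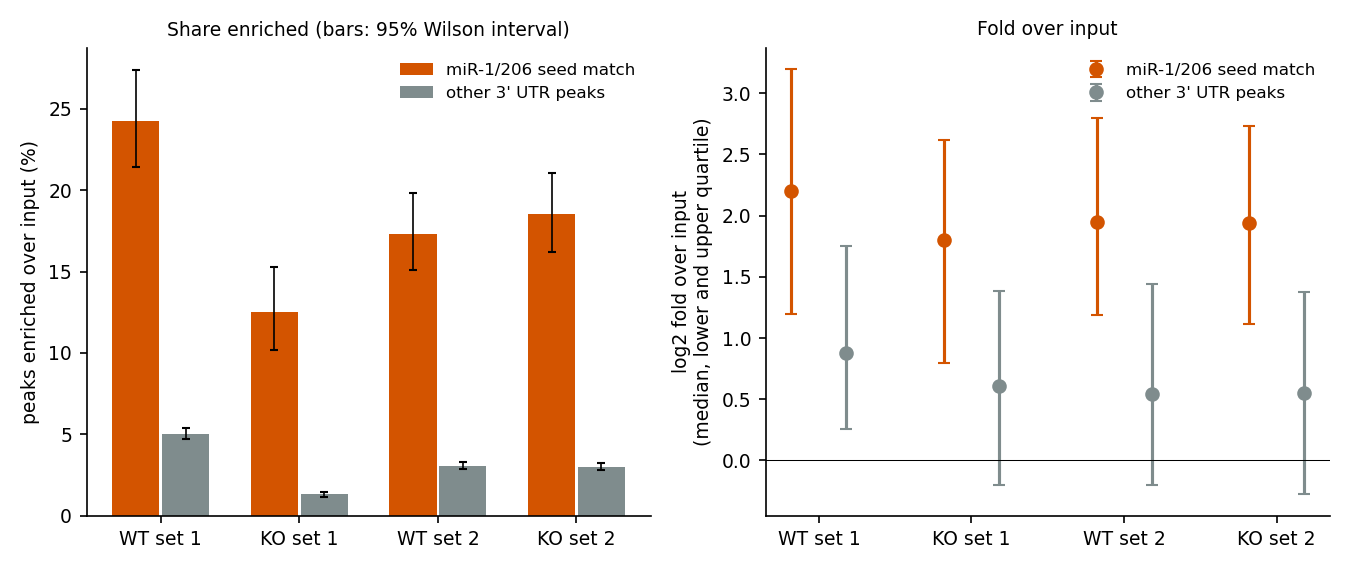
Share of peaks enriched over input in percent (left, bars with 95% Wilson intervals) and log2 fold over input (right, points at the median with lines to the quartiles) for 3′ UTR peaks with a miR-1/miR-206 seed match and for other 3′ UTR peaks, in each of the 4 libraries. The members reached 24.3%, 12.5%, 17.3% and 18.5% enriched and lay above the other peaks in every library.

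Members were longer than other 3′ UTR peaks, with median lengths of 111, 108, 158 and 148 nt against 74, 69, 102 and 97 nt, and longer peaks were more often enriched. In the top length quartile of the 3′ UTR peaks of each library, 38.5% and 19.1% of members were enriched in WT and mir-486 KO of set 1, and 23.1% and 23.5% in set 2, against 15.2%, 3.87%, 5.84% and 5.66% of the other peaks of that length. Weighted over classes of peak length and G+C content, the difference was 12.7 ± 2.06 percentage points and 1.02 ± 0.25 on the log2 scale (SD, n = 4; exact permutation p = 0.13 for both). The 50 to 74 nt class of WT set 1 was the weakest of those with over 100 members, with 2 of 106 enriched (1.89%) against 1.21% of the other peaks. In the 1 to 49 nt class of that library, 0 of 35 members were enriched against 1.10% of the others. Both groups of that class had a median log2 fold of 0.46.

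The next comparison asked whether the letters of the seed match, or their order, went with enrichment. The word was set against all other orders of its letters, which have the same base composition. Of the enriched 3′ UTR peaks, 18.2% held the word in WT and 22.2% in mir-486 KO of set 1, and 16.4% and 17.4% in set 2. The median of the other orders was 0.95%, 0.83%, 1.14% and 1.06%, so the seed match was 14.4 to 26.7 times as frequent as that median, and none of the other orders reached it in any library. The word was also frequent in 3′ UTR peaks that were not enriched, at 3.55%, 2.59%, 2.86% and 2.80%. That was 3.55 to 5.27 times the median of the other orders, and 1 of them, CATTCCA, exceeded the word in each library. The percent enriched of peaks holding the word was 3.02 to 5.47 times the median over the other orders, and none reached it.

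Among enriched 3′ UTR peaks, the single order close to the seed match, CATTCCA, was at 15.9%, 16.7%, 13.6% and 14.96%. It is not independent of the seed match: it pairs with positions 2 to 7 and carries the A opposite the first base, a site type called 7mer-A1, and both words together make the 8mer. The order next in frequency in WT of set 1 and in both libraries of set 2 was TACCTCA, the corresponding 7mer-A1 of let-7, at 5.89%, 6.62% and 6.08%. The word read on the opposite strand, GGAATGT, was in 1.14%, 0.56%, 1.703% and 1.74% of the enriched 3′ UTR peaks, close to the median of the other orders.

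**Figure D2:**
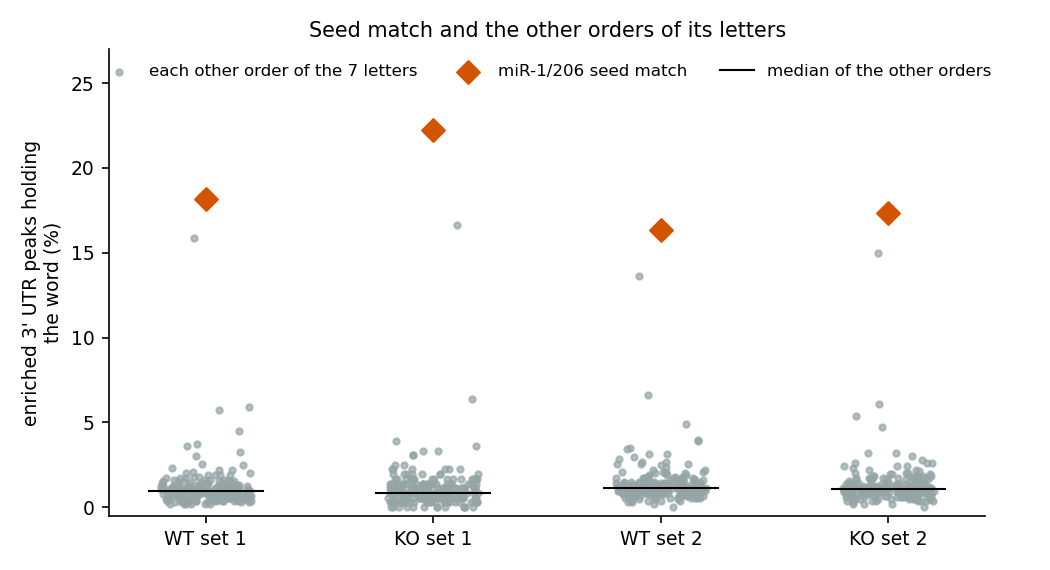
Percent of enriched 3′ UTR peaks that held the miR-1/miR-206 seed match (diamond) and each of the other orders of its 7 letters (points, spread sideways for legibility; line at their median), by library. The seed match lay at 16.4% to 22.2% and above every other order, and the single point near it in each library is the 7mer-A1 word, which overlaps the seed match.

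Peaks with the 7mer-A1 word and no seed match stood between the members and the rest. They were enriched in 16.7% and 5.87% of cases in WT and mir-486 KO of set 1, and 10.8% and 10.8% in set 2, against 4.68%, 1.22%, 2.89% and 2.84% of peaks with neither word. They exceeded the peaks with neither word by 8.13 ± 3.01 percentage points and fell below the members by a difference of 7.12 ± 0.64 (members minus 7mer-A1; SD, n = 4, exact permutation p = 0.13 for both).

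The same comparison was made from the sequence, by asking how many words in the 3′ UTRs of genes with a listed 3′ UTR peak lay within a peak. In WT of set 1, 720 of 1345 seed matches (53.5%) lay inside a listed peak and 14.1% inside an enriched one. In mir-486 KO of set 1 these shares were 38.2% and 5.15%, and in set 2 they were 52.5% and 9.98% in WT and 52.2% and 10.3% in mir-486 KO. The medians of the other orders were 9.30%, 9.55%, 15.9% and 15.1% for listed peaks and 0.91%, 0.30%, 0.88% and 0.78% for enriched peaks. A seed match in a 3′ UTR with AGO2 signal was thus within a listed peak 3.31 to 5.75 times as often as the median order of the same letters, and none of the other orders reached it. The highest of the other orders came close for listed peaks, at 49.5%, 35.3%, 48.4% and 47.1%. For enriched peaks it was at 10.8%, 3.57%, 7.44% and 7.81%.

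8mers lay in a listed peak more often than 7mer-m8 words, at 59.3% against 50.2% and 43.5% against 35.1% in set 1 and 57.7% against 49.5% and 58.6% against 48.5% in set 2 (WT, then mir-486 KO). The share of enriched members was 24.3% for 8mers and 24.3% for 7mer-m8 in WT of set 1, 13.2% and 12.1% in mir-486 KO of set 1, 18.02% and 16.9% in WT of set 2, and 21.3% and 16.7% in mir-486 KO of set 2. The difference of 1.72 ± 2.00 percentage points (SD, n = 4, exact permutation p = 0.13) was smaller than its spread over libraries and turned to −0.35 with a log2 threshold of 4. The median log2 fold of 8mers was higher by 0.19 ± 0.099 (n = 4, higher in 4 of 4 libraries, exact permutation p = 0.13).

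The match mostly lay within the peak itself. In 715 of 787, 530 of 639, 860 of 998 and 844 of 972 members it was inside the called peak, and in the rest it reached into the 25 nt on either side. Members with the match inside were enriched in 26.2%, 13.2%, 18.7% and 19.9% of cases (WT and mir-486 KO of set 1, then of set 2), against 5.56%, 9.17%, 8.70% and 9.38% of those with it in the flank. The difference was 11.3 ± 6.87 percentage points (SD, n = 4, positive in 4 of 4 libraries, exact permutation p = 0.13). The flank groups held only 72 to 138 members with 4 to 12 enriched. They were not matched on peak length to the members with the match inside, and longer peaks were more often enriched. The part of peak length in this difference was not tested.

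Matches gathered at the peak centre in set 1. In WT the density in the 10-nt bins rose from 1.29 per 1000 3′ UTR peaks at 40 to 50 nt upstream of the centre to 7.11 just downstream of it, while the mean of the other orders stayed between 0.54 and 0.71. In mir-486 KO of set 1 the highest bin had 3.56 per 1000. In set 2, where peaks were longer, the profile was flatter, with the highest bin at 3.28 in WT and 3.07 in mir-486 KO. The median distance of the match from the centre was between −3.5 and 2.0 nt in all 4 libraries. The window searched is symmetric about the centre, so evenly spread matches would also have their median there. Within 20 nt of the centre lay 55.0% and 46.5% of matches in WT and mir-486 KO of set 1, and 32.4% and 34.9% in set 2.

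**Figure D3:**
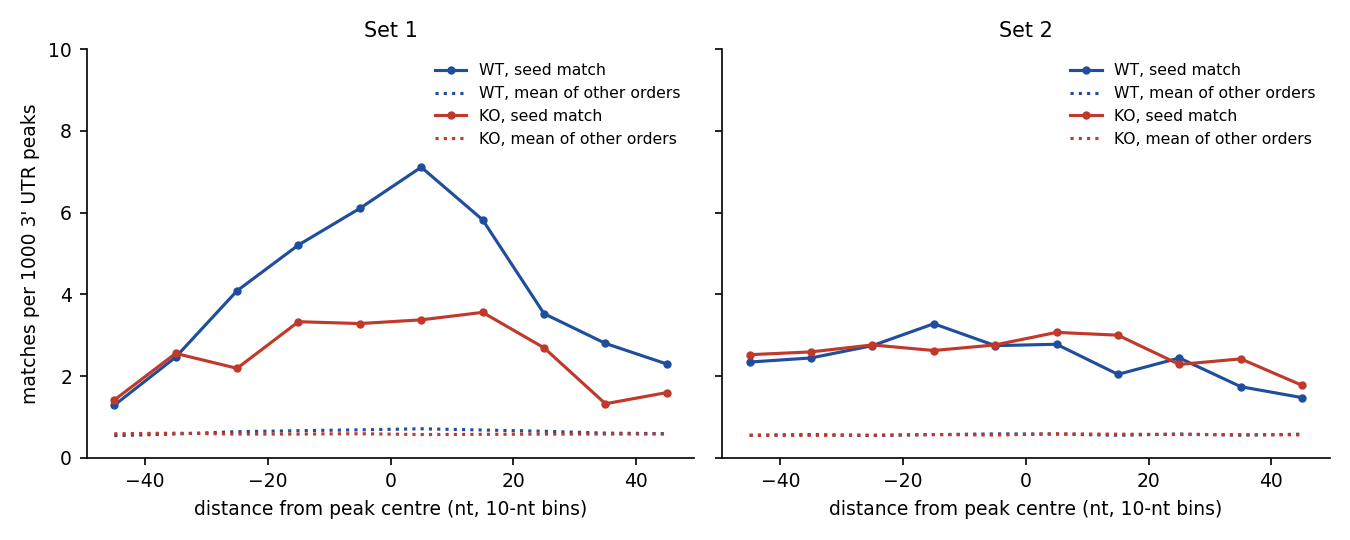
Matches per 1000 3′ UTR peaks in 10-nt bins by distance from the peak centre (negative is upstream on the transcript), for the seed match (solid) and the mean of the other orders of its letters (dotted), WT in blue and mir-486 KO in red. The density was highest near the centre in WT of set 1, at 7.11, and flatter in set 2.

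Members lay along the 3′ UTR much as other peaks did. The median member was 41.6%, 40.7%, 41.6% and 42.1% of the way from the stop codon to the 3′ end, and the median of the other peaks 41.2%, 42.6%, 41.4% and 41.1%. Words for miR-133, let-7, miR-29 and miR-30 were found in 1.10% to 2.81% of members and in 1.74% to 4.50% of the other 3′ UTR peaks, less often in members for each word in each library. Of members with a miR-133 word, 6 of 12, 3 of 10, 7 of 16 and 4 of 12 were enriched (WT and mir-486 KO of set 1, then of set 2). For let-7 these were 4 of 10, 2 of 7, 6 of 17 and 5 of 15. For miR-29 they were 8 of 17, 5 of 15, 4 of 19 and 5 of 22. For miR-30 they were 6 of 18, 4 of 13, 4 of 28 and 7 of 25. Of all members, 24.3%, 12.5%, 17.3% and 18.5% were enriched.

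The bases next to the match differed slightly between enriched and other sites. In the 30 nt upstream of the match, A+U content averaged 57.4%, 60.4%, 59.0% and 59.8% at enriched sites and 54.8%, 55.9%, 55.7% and 55.4% at listed sites that were not enriched. The difference was 3.67 ± 0.89 percentage points (SD, n = 4, higher in 4 of 4 libraries, exact permutation p = 0.13). Downstream it was 1.06 ± 0.92 percentage points and of either sign. A neighbouring site within 60 nt was seen for 6, 6, 8 and 6 enriched sites a library, or 3.13%, 8%, 4.73% and 3.43% of them, against 1.25% to 1.68% of the other listed sites. Pairs in Vamp2, Met and Tpm4, enriched in all 4 libraries, gave all of these enriched sites except in WT of set 2. The sites of a pair mostly shared 1 peak and its fold, so they are not separate measurements.

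Of 5 seeds compared, miR-1/miR-206 had the largest mean excess. Peaks with a miR-133 word were enriched in 16.5%, 6.52%, 16.1% and 15.9% of cases and exceeded the remaining 3′ UTR peaks by 10.3 ± 3.69 percentage points. Peaks with a let-7 word were enriched in 10.6%, 3.17%, 9.28% and 7.95% and exceeded the rest by 4.19 ± 1.85 percentage points. The excess was 3.29 ± 1.97 percentage points at peaks with a miR-29 word and 3.61 ± 1.98 at those with a miR-30 word (SD, n = 4 libraries). The excess at miR-1/miR-206 peaks was larger than that at miR-133 peaks by 4.72 ± 3.16 percentage points and larger than that at let-7 peaks by 10.9 ± 2.599, in 4 of 4 libraries each. The exact permutation p was 0.13 (n = 4) for each of the 5 seeds and for both differences, and Benjamini-Hochberg adjustment leaves equal values as they are.

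Of the 1202 sites, 318 were enriched in at least 1 library, in 298 genes. Of these, 151 were enriched in 1 library, 82 in 2, 44 in 3 and 41 in all 4, and these last fell in 37 genes. Enriched members recurred more often than other enriched 3′ UTR peaks. Of those in WT of set 1, 50.8% overlapped an enriched peak of WT of set 2 (other peaks 34.5%), and in the opposite direction 56.6% did (38.2%). For mir-486 KO the shares were 71.3% from set 1 to set 2 (47.9%) and 30% from set 2 to set 1 (20.6%), which differ in size because the set 1 library had 80 enriched members and the set 2 library 180. These overlaps were not matched on peak length, and members as a whole were longer than other 3′ UTR peaks. The part of length in the recurrence was not tested.

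The 20 sites with the highest lowest fold in the 4 libraries were chosen by these values, which are therefore a description. At the top was a site in Snx2, a sorting nexin of the endosomal retromer, with log2 folds over input of 5.18 in WT and 4.84 in mir-486 KO of set 1, and 4.46 and 4.42 in set 2. Uhmk1, a kinase that phosphorylates splicing factors, had 4.28, 5.03, 4.47 and 4.33 in the same order. The Snx2 site was higher in WT in both sets, by 0.33 and 0.04, and the Uhmk1 site was higher in mir-486 KO in set 1 and in WT in set 2.

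Hdac4, the class IIa histone deacetylase that represses MEF2 and is widely described as a miR-1 target of muscle, stood at place 3 with log2 folds of 5.71, 4.63, 4.62 and 4.23. Its WT library of set 1 was the highest and the other values lay close together. The site is 7mer-m8 and was the only miR-1/miR-206 site listed in the Hdac4 3′ UTR. Ndrg3, an N-myc downstream-regulated gene, followed with 4.62, 4.78, 4.15 and 4.24 at an 8mer.

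Vamp2 and Met each held a pair of sites close together. Vamp2 encodes the vesicle SNARE synaptobrevin, and its sites stood at 4.79, 4.26, 4.09 and 4.35 (upstream) and 4.79, 5.63, 4.09 and 4.35 (downstream). The equal values mark libraries in which the same peak held both matches. Met, the receptor for hepatocyte growth factor, had 4.94, 3.87, 3.86 and 4.11 at both of its sites, since 1 peak covered both in every library, so the pair counts as 1 measurement. Tpm4, a non-muscle tropomyosin, had 2 matches with no base between them in 1 peak, at 4.79, 3.73, 3.34 and 3.06.

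The remaining sites of the 20 were in genes of membrane traffic, signalling and other functions. Cltc, the clathrin heavy chain, had log2 folds of 4.53, 3.46, 3.62 and 3.47. Mylk, the kinase of the myosin light chain in smooth muscle, had 5.74, 3.86, 3.41 and 3.56, with WT of set 1 far above the rest. Ankib1, an E3 ubiquitin ligase, reached 6.17 in mir-486 KO of set 2, the highest single value among the 20, against 3.89 in mir-486 KO of set 1. Rsu1, part of the adhesion complex of integrin-linked kinase, Pde7a, a cyclic AMP phosphodiesterase, and Mon2, of endosome to Golgi transport, had lowest folds of 3.47, 3.35 and 3.39, and Blcap, Fam126b, Scaf11, Uhrf1bp1l, Ammecr1l and Coa5 completed the list. Places 18 to 20, Mon2, Pde7a and Coa5, had lowest folds of 3.39, 3.35 and 3.34, and places 21 to 23, the nuclear matrix protein gene Matr3, the mRNA decay factor gene Zfp36 and the DNA methyltransferase gene Dnmt3a, had 3.33, 3.26 and 3.25, so the end of the list is no boundary in the data.

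**Figure D4:**
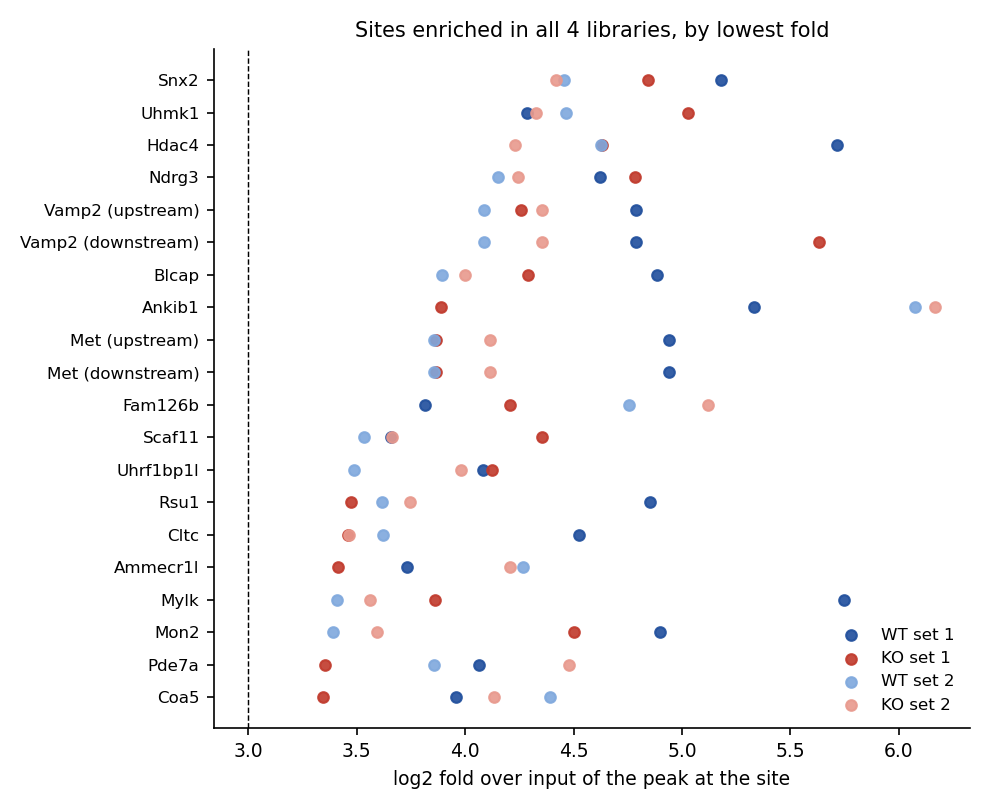
Log2 fold over input of the peak at each of the 20 miR-1/miR-206 sites with the highest lowest fold, by library (WT blue, mir-486 KO red, set 1 dark, set 2 light; dashed line at the enrichment threshold of 3). All values lay above 3 because only sites enriched in all 4 libraries were taken, and some paired sites share a peak and its value. WT of set 1 was often the highest, as at Hdac4 and Mylk.

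Further sites enriched in all 4 libraries lay in Jarid2, a cofactor of Polycomb repressive complex 2 (log2 folds of 5.04, 5.03, 4.66 and 3.23), Lats2, a kinase of the Hippo pathway (4.40, 3.36, 3.22 and 4.76), and Nfatc3, a calcineurin-regulated transcription factor (3.44, 3.17, 3.58 and 3.89). Uhmk1 held another site among the 41, separated from the one above and with 5.66, 3.07, 3.98 and 3.71. In all, 19 genes had at least 2 enriched sites, Slc25a23 with 3. Of the 41 sites, 14 (34.1%) were 8mers, against 38.4% of all 1202 sites.

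A list of 42 genes often given as miR-1 or miR-206 targets, written from general knowledge, was read for sites. It had 36 genes with a listed 3′ UTR peak, 23 of them with a member (63.9%, against 10.4% of all 10431 genes with a 3′ UTR peak) and 7 with an enriched member (19.4%, against 2.86%). Such genes were named as targets because of these sites, so neither share is independent evidence. Among genes with a member, 7 of 23 listed targets (30.4%) and 298 of all 1082 genes (27.5%) had an enriched one. Of the cytoskeleton and membrane genes all 6 had a site, and of the pentose phosphate and metabolism genes 3 of 4 did. The 4 genes of cell cycle and replication (Ccnd1, Ccnd2, Cdk9 and Pola1) had 3′ UTR peaks and no site.

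In the group of transcription and chromatin genes, Hdac4 was the single gene with an enriched site. Ets1 had 3 sites and Pax3 and Pax7, regulators of muscle stem cells, had 2 each. The Pax3 and Pax7 sites were listed in 1 library each, with log2 folds of at most 2.04 and 0.56. Of the satellite cell markers Pax7 and Myf5, at most 1 of 2 had any listed peak in a library. Mef2a, Smarcd2 and Notch3 had 3′ UTR peaks and no site.

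Among ion channel, transport and calcium genes, Gja1, which encodes connexin 43, had an 8mer with log2 folds of 2.57, 3.05, 3.20 and 1.89 and was enriched in 2 libraries. Kcnj2, the inward rectifier potassium channel Kir2.1, had an 8mer with 3.20, 3.01, 1.86 and 2.70, enriched in both libraries of set 1. Calm2 and Ppp2r5a had 3′ UTR peaks and no site. Hcn2, Hcn4, Kcne1 and Slc8a1 had no listed 3′ UTR peak.

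Among growth signals and receptors, Met was enriched in 4 libraries and the other 5 genes with a site in none. The Igf1 site, an 8mer in the gene for insulin-like growth factor 1, was listed in 3 libraries at 2.46 (WT of set 1), 2.92 and 2.73 (WT and mir-486 KO of set 2), below the threshold of 3. Vegfa had 1.504, 2.06, 0.59 and 2.12, and Fstl1 0.80, 2.89, 2.00 and 1.24. Fzd7 and Bdnf, with 3 and 2 libraries listed at most, did not exceed 2.24.

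The cytoskeletal genes carried matches of moderate fold. Tmsb4x, thymosin beta 4, had log2 folds of 1.89, 2.34, 2.57 and 2.19, and Twf1, the actin-capping twinfilin 1, had 1.196, 1.71, 1.92 and 1.82. Cnn3, calponin 3, had 2.46, 2.21, 1.63 and 2.598. Coro1c had a pair of 8mers in 1 peak at 1.46, 0.80, 1.52 and 2.16, Utrn, the dystrophin relative utrophin, had 1.04, 2.26, 2.49 and 2.07, and Tagln2, transgelin 2, was enriched in mir-486 KO of set 1 alone, at 3.15, with 2.08 to 2.50 in the others. All were listed in 4 libraries. The WT and mir-486 KO values overlapped at each of these sites except Tagln2, where both mir-486 KO values (3.15 and 2.50) lay above both WT values (2.08 and 2.48).

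Of the metabolic genes, Gpd2, the mitochondrial glycerol-3-phosphate dehydrogenase, was enriched in 3 libraries with log2 folds of 4.76, 2.77, 4.34 and 3.70. G6pdx, glucose-6-phosphate dehydrogenase of the pentose phosphate pathway, had 2 sites, both enriched in WT of set 2 alone, at 3.02 and 3.10. Tkt, transketolase of the same pathway, had 2.68, 1.12, 2.28 and 2.10. Of the stress and matrix genes, Hspd1, a mitochondrial chaperonin, had 2.42, 2.47, 2.06 and 1.78 and Timp3, an inhibitor of metalloproteinases, 2.33, 2.55, 1.23 and 1.30.

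WT and mir-486 KO were compared at these sites within each set, by the difference of the log2 folds over input of overlapping WT and mir-486 KO peaks. In set 1 the median WT minus KO difference was 0.65 over 571 member pairs and 0.46 over 8724 other 3′ UTR pairs. In set 2 it was 0.05 over 873 member pairs and 0.02 over 18770 others. Members therefore differed from the other peaks by 0.19 in set 1 and 0.03 in set 2, 0.11 ± 0.11 (SD, n = 2 sets, exact permutation p = 0.5, the smallest 2 sets allow), a difference no larger than its spread. Over pairs with enrichment in at least 1 library the mean turned to −0.18.

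The sign of the difference at a single site often changed between the sets. Of the 496 sites listed in 4 libraries, 240 (48.4%) had the same sign of WT minus KO in both sets, 183 of them higher in WT and 57 higher in mir-486 KO. Other 3′ UTR peaks of set 1 were also shifted towards WT. Over overlapping pairs found in both sets, 39.0% of 539 member pairs were higher in WT in both sets and 10.8% higher in mir-486 KO in both, against 33.0% and 16.3% of 7125 other 3′ UTR pairs. Spearman's rho across sites between the sets was −0.013, given as a description, since sites share their libraries. The share of members enriched was 20.8% ± 4.90 in WT and 15.5% ± 4.24 in mir-486 KO (SD, n = 2 each), with overlapping values, and the smallest two-sided exact permutation p for 2 against 2 is 0.333. The other 3′ UTR peaks were at 5.05% and 3.06% in WT and 1.32% and 3.02% in mir-486 KO. The share at members divided by that at other peaks ran the opposite way, at 5.24 ± 0.60 in WT and 7.82 ± 2.39 in mir-486 KO.

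Of the 240 sites with a difference of the same sign in both sets, the 5 with the largest mean difference in each direction are given. They were chosen by these values, without a test. Highest in WT was an 8mer in Lrrfip1, a regulator of transcription and innate sensing, with log2 folds of 5.56 in WT and 2.91 in mir-486 KO of set 1, and 5.02 and 3.03 in set 2. Snx25, Lrch1, Mecom and Galm followed with mean differences of 2.26, 2.20, 2.10 and 2.04, and 15 sites were higher in WT by at least 1 in both sets. Highest in mir-486 KO was Fubp3, an RNA-binding protein of AU-rich elements, with −0.13 in WT and 2.12 in mir-486 KO of set 1, and 0.56 and 3.56 in set 2. Sorbs2, Nol3, Efnb2 and Wdr6 had mean differences of −1.53, −1.52, −1.48 and −1.44, and 3 sites were higher in mir-486 KO by at least 1 in both sets. The Lrch1, Fubp3, Sorbs2 and Efnb2 sites were enriched in 0 libraries. Counted over the overlapping pairs, 3.34% of member pairs and 2.27% of other 3′ UTR pairs were higher in WT by at least 1 in both sets, and 0.56% and 0.87% higher in mir-486 KO.

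**Figure D5:**
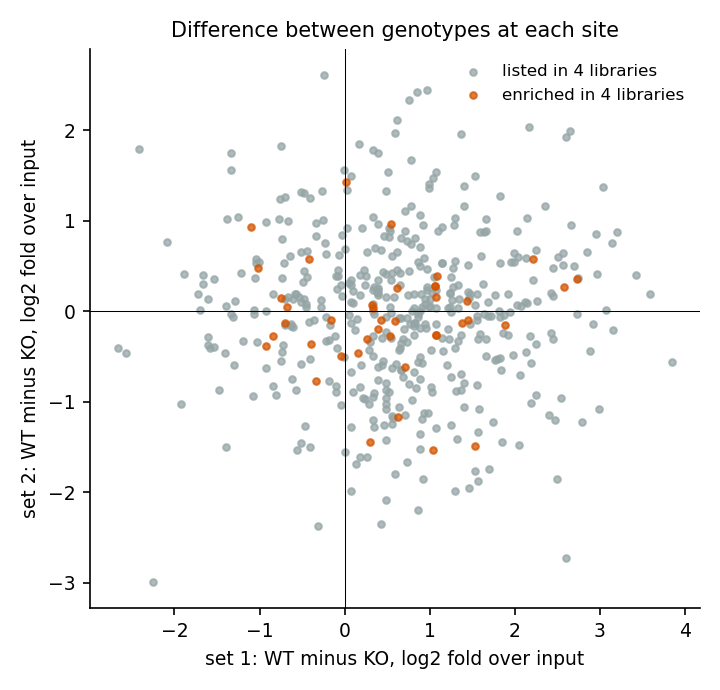
WT minus mir-486 KO difference in log2 fold over input at each of the 496 miR-1/miR-206 sites listed in all 4 libraries, set 1 (horizontal axis) against set 2 (vertical axis), with the sites enriched in all 4 libraries in orange. The points had no common slope (Spearman's rho −0.013), and 240 of 496 lie in the quadrants of equal sign, 183 of them higher in WT and 57 in mir-486 KO. Over overlapping member pairs the median difference was 0.65 in set 1, shifted towards WT, and 0.05 in set 2.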

How the data were processed

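Chimeric eCLIP peaks of 2 WT and 2 mir-486 KO total immunoprecipitated TA libraries were analysed. The labels also describe inputs and libraries amplified for miR-486 chimeras, which were not used here. Reads were adapter-trimmed and aligned to GRCm38 with STAR by the authors, who called peaks in each library with CLIPper and normalized peak reads to the input. For each peak the authors deposited the log2 fold over input and the −log10 of its p-value, with 400 as the highest value. Another 4 lists hold the authors' own direct comparisons of WT and KO and were not used. Members, lists, site rules, tests and thresholds were chosen with earlier results of these data known. The 3′ UTRs and genes were those of GENCODE M21, and bases were read from GRCm38. miR-206-3p stood for the shared seed. A site took the enriched peak of highest fold in a library, or else the peak of highest fold. Named were the 20 sites enriched in 4 libraries with the highest lowest fold, 3 on each side of that limit, the target list, the microRNA loci, and the 5 sites a direction with the largest difference of 1 sign in both sets. Any further site or gene was picked with its values in view. Some genes are not reported here. Differences were formed within libraries and tested over libraries by exact sign flips, since peaks are not replicates. Alternatives were other thresholds, extensions, words, comparison peaks, merged peaks, single sets and left-out libraries. The functions were tested on simulated data. Python 3.11.15, numpy 2.4.6, pandas 2.3.3 and scipy 1.17.1 were used.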

Additional observations from a re-analysis of the deposited data

Results flagged for a closer look

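A signal also lay in data outside the 3′ UTR comparison. Listed peaks with their midpoint in coding sequence and in no 3′ UTR were enriched over input more often when they held the same 7-nt word: 15.7% of 802 against 3.03% of the other coding-sequence peaks in WT and 3.23% of 589 against 0.20% in mir-486 KO of set 1, and 10.3% of 1044 against 0.91% and 10.1% of 1073 against 0.84% in set 2. The mean difference was 8.59 ± 4.03 percentage points (SD, n = 4 libraries, higher in 4 of 4, exact permutation p = 0.13). Of the enriched coding-sequence peaks, 9.27%, 20.7%, 12.4% and 13.0% held the word, against medians of 0.74%, 1.09%, 0.80% and 0.84% over the other orders of its letters, of which none reached it. In mir-486 KO of set 1 this rests on 19 enriched peaks. In listed peaks in neither coding sequence nor a 3′ UTR, the share enriched gave no common direction. Its difference with the word was −0.41 and 0.26 percentage points in WT and mir-486 KO of set 1, and 3.29 and 1.62 in set 2. Their median log2 fold was higher with the word in every library. In the same order it was 0.87, 0.80, 1.47 and 1.24 with the word, against 0.46, 0.38, 0.696 and 0.56 without. Among all listed peaks of this class, 2722 held the word and 24018 did not in WT of set 1, and 2365 and 53090 in mir-486 KO. In set 2 these numbers were 5921 and 110670 in WT, and 5474 and 119704 in mir-486 KO. Of the enriched peaks of this class, 8.80%, 5.33%, 18.2% and 11.8% held the word. In WT of set 1, where the difference in share was negative, enriched peaks held the word less often than peaks not enriched. The medians over the other orders in the enriched peaks were 0.55%, 0.37%, 0.998% and 0.697%. In mir-486 KO of set 1, 1 of the other orders reached the word, and none did in the other libraries. With 2 libraries a genotype, no group was large enough to be examined for an outlying library.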

How the results depend on the processing

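The share enriched at members minus other 3′ UTR peaks kept its sign under every alternative run, between 5.25 percentage points with a log2 threshold of 4 and 26.96 with a log2 threshold of 1. Leaving out 1 library gave 13.7 to 16.3. The median difference was between 0.96 (6-nt word, positions 2 to 7) and 1.44, and between 1.30 and 1.37 with 1 library left out. Replacing the comparison peaks by those with an order of the same letters gave 14.5 percentage points, and counting distinct sites against merged peaks gave 15.04. Beyond the median of the other orders, the word was in 17.5 percentage points more of the enriched peaks, moving to 11.6 with a log2 threshold of 1, 29.3 with the 6-nt word and 7.59 with the 8-nt word, while the reverse complement as comparison, chosen after seeing the data, gave 17.2. The 8mer difference turned to −0.35 with a log2 threshold of 4 and was 0.75 to 2.28 with 1 library left out. The WT minus KO difference at members turned to −0.18 over pairs with enrichment. The 41 sites enriched in 4 libraries became 122 and 6 with log2 thresholds of 1 and 4, 74 and 14 with the 6-nt and 8-nt words, and 85 in at least 3 libraries. The 7 listed targets with an enriched site became 19 and 3 with log2 thresholds of 1 and 4. The match inside the peak gave 8.20 to 13.7, miR-133 9.51 to 12.1 and let-7 3.62 to 5.06 with 1 library left out. The cause of each shift was not tested. The WT and KO comparison was already paired by set and the others were formed within a library, and the labels carry no replicate numbers for a further pairing.

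Read counts are not in the lists, so the depth behind a peak is unknown, and a site in no listed peak is not shown to be unbound. Folds depend on input reads, whose most common number, inferred from the steps of the log2 folds and not counted, was 1. WT and mir-486 KO differ in labelled strain, and 2 libraries a genotype cannot give a p below 0.333. Abundance of the transcripts was not measured here. Sites that share a peak share its value, and miR-1 and miR-206 cannot be told apart from the word.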
